A study of Mus musculus with 2 samples.

Results

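The cells described here are cluster 1 of the authors' clustering of all cells, a group of shallow droplets whose transcripts are those of macrophages. It holds 2435 of the 23528 cells of the study and was chosen by the deposited cluster number alone. The Memo1-mutant library gave 1182 of them and the control library 1253. The study compared the cervical loop region of the incisor, the growing end of the tooth with its epithelium and mesenchyme, between 1 Memo1-mutant mouse, labelled Memo1;K14CRE, and 1 control mouse, both at postnatal day 20. Each mouse gave 1 library of the 10x Genomics 3' single-cell assay, in which each captured RNA molecule is counted once through its unique molecular identifier (UMI). The K14 promoter drives Cre in epithelium, so macrophages are not the cells it is used to target. The control is labelled by that word only, and strain and sex are not given in the sources used here. With 1 mouse in each group no variation between mice can be estimated, so no p-value is given, and every interval covers counting error only.

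Macrophages are phagocytes that take up dying cells and debris, digest them in lysosomes and present fragments on MHC class II. They depend on the receptor Csf1r and on the transcription factor Spi1 (PU.1), and they sense their surroundings through Fc receptors and the adaptor Tyrobp. Within minutes of a stimulus, tissue digestion included, they induce immediate early genes and inflammatory cytokines and chemokines. In and around teeth they are a part of the pulp, the follicle and the tissue outside the enamel organ.

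The mutant library held 120862385 UMIs in 13820 cells and the control library 79518656 UMIs in 9708 cells, with medians of 6798 and 2643 UMIs per cell. The libraries also differed in sex-linked RNA. Xist, made from the inactive X chromosome, had 170307 counts in the mutant and 49 in the control library, while Y-linked Ddx3y had 5 and 5024. Inside cluster 1 the counts were 596 and 1 for Xist and 0 and 51 for Ddx3y, so that sex and genotype cannot be told apart. Memo1 itself had 20 counts (14.7 CPM) in mutant and 17 counts (12.1 CPM) in control cells of cluster 1. CPM, counts scaled to a total of 1e6 in the summed cells of a cluster in 1 library, is the level used throughout. Outside clusters 1 and 4 Memo1 stood at 18.1 CPM in the mutant and 20.1 CPM in the control library. Which exons the Cre removes is not given in the sources used here, so these 3' counts do not check the genotype label. Of the cell barcodes, 139 occurred in both libraries, and 13 of those cells lie in cluster 1. Leaving them out left the counts of genes past 2-fold given below within 1.5 times their values.

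The 8 genes given as markers of cluster 1 are expressed in leukocytes, and many genes of myeloid cells are bound by PU.1, whose motif holds the letters GAGGAA. RefSeq promoter windows on GRCm38.p6 were available for 5 of the 8 (Aif1, Rgs10, Gmfg, Hpgd and Ccl6). In the 250 bases before the start site, 3 of the 5 hold GAGGAA or its reverse complement TTCCTC, searched on both strands, as do 25.9% of 27025 genes. The stretches are printed 5′ to 3′ on the gene's own strand because they belong to the genes by which the cluster is recognised, and the capitals mark the match.
Aif1 (chr17:35176053-35176112, minus strand): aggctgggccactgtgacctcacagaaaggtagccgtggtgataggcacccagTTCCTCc
Gmfg, its second start site (chr7:28440687-28440746, plus strand): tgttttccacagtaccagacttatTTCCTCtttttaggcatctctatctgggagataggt
Hpgd (chr8:56294302-56294361, plus strand): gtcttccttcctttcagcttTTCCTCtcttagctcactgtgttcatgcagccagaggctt
A match is a description of letters in a window and no evidence of binding. Rgs10, Ccl6 and the first start site of Gmfg hold no match in this window.

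The cells of cluster 1 carried the RNA of macrophages, at levels that were close in both libraries. Ordered by the fold over all other cells of the study, the 10 leading genes were Aif1, Rgs10, Tyrobp, Ifi27l2a, Lst1, Gmfg, Ptpn18, Cd209g, Hpgd and Ccl6, followed by Cd52 and Pf4. In GENCODE M21 on mm10, Aif1 lies on chr17:35170991-35176068, minus strand and Tyrobp on chr7:30413760-30417585, plus strand. These genes define the cluster, and the 8 given markers were read from it, so their height is a description. Aif1 (Iba1), an actin-binding protein of macrophages, had 894 CPM in mutant and 867 CPM in control cells. Tyrobp (DAP12), the adaptor that carries signals from activating receptors, had 2302 CPM in mutant and 2189 CPM in control cells. Rgs10, which shortens G protein signals, had 529 CPM in mutant and 542 CPM in control cells. The mutant over control ratios of these 3 genes were 1.03, 1.05 and 0.976.

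Gmfg, which takes apart branched actin, had 366 CPM in mutant and 417 CPM in control cells. Hpgd, the enzyme that inactivates prostaglandins, had 353 CPM in mutant and 335 CPM in control cells. Lst1, a leukocyte membrane protein, had 598 CPM in mutant and 627 CPM in control cells. The interferon-inducible Ifi27l2a had 648 CPM in mutant and 520.3 CPM in control cells, and the chemokine Ccl6 had 427 CPM in mutant and 631 CPM in control cells, which makes Ccl6 the marker that differed most between libraries, 1.48-fold lower (95% interval 1.33 to 1.65) in mutant cells.

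A list of 20 macrophage genes taken from general knowledge summed to 25832 CPM in mutant and 26754 CPM in control cells of cluster 1. In cluster 4, the deep macrophage-like cluster, the same list summed to 41038 and 45672 CPM, in cluster 23 to 21169 and 20944 CPM, and in cluster 28 to 14528 and 15134 CPM. No other cluster passed 4095 CPM. All 20 genes were detected in cluster 1 of both libraries. The most abundant were Lyz2, lysozyme of myeloid cells, with 4719 CPM in mutant and 6191 CPM in control cells, and C1qb, a subunit of complement C1q, with 4499 CPM in mutant and 4695 CPM in control cells. Spi1, the lineage factor itself, had 324 CPM in mutant and 321 CPM in control cells. None of the 20 was among the 10 leading genes. The cluster is far shallower than its libraries, so the name rests on the given markers together with these levels.

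Markers of T and NK cells, neutrophils and B cells were low beside the macrophage list. The T and NK cell list summed to 16.2 CPM in mutant and 22.7 CPM in control cells, and Cd3e and Cd3d were at 0 counts in both. The neutrophil list summed to 102 and 134 CPM, with Ly6g and Cxcr2 at 0, against 53.5 and 53.9 CPM in mutant and control cells of cluster 4. Its 2 and 3 measured members had median log2 ratios over cluster 4 of 1.79 in the mutant and 2.65 in the control library. The B cell list summed to 72.7 and 34.1 CPM, against 34.2 and 40.2 CPM in cluster 4, and Ms4a1 was at 0 in cluster 1. In the mutant library 2 cells of cluster 1 with at least 3 UMIs of the B cell list held 64.6% of its counts. The dendritic cell list, part of which macrophages also express, summed to 432 and 430.0 CPM, and 61 mutant (5.16%) and 55 control cells (4.39%) had at least 3 of its UMIs. Most of its sum came from Mgl2, Clec10a and Cd209a, while Flt3, Xcr1, Clec9a and Ccr7, named here after their values were seen, had at most 2 counts each in either library. The erythroid list, mainly haemoglobin, was not low: it summed to 899.5 CPM in mutant and 9498 CPM in control cells of cluster 1, and 1095 and 3661 CPM in those of cluster 4. In the control library 2 cells of cluster 1 held 81.0% of the Hbb-bs counts. A few cells stood apart: 2 mutant and 1 control cells with at least 3 UMIs of mast cell genes held 79.0% and 71.4% of that list's counts, and 7 mutant and 5 control cells held 89.5% and 86.2% of the platelet counts other than Pf4, which macrophages also express.

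Nearly every cell showed the signature. Of the mutant cells 10 of 1182, and of the control cells 10 of 1253, had no UMI of the 20 macrophage genes, and 97.6% (95% Clopper-Pearson interval 96.6 to 98.4) of mutant and 97.2% (96.1 to 98.0) of control cells had 2 or more. After each cell was thinned at random to 500 UMIs, which left out no cell, the median was 9 macrophage UMIs in both libraries of cluster 1, against 21 in mutant and 23 in control cells of cluster 4. In cluster 0, a shallow cluster with median depths of 723 and 801 UMIs and few macrophage transcripts, the median was 0. Tyrobp was seen in 58.0% of mutant and 56.7% of control thinned cells of cluster 1, in 61.9% and 64.4% of those of cluster 4, and in 4.25% and 2.92% of those of cluster 0. Without thinning the shares in clusters 1, 4 and 0 were 72.8%, 99.8% and 6.41% in mutant and 73.8%, 100% and 4.53% in control cells. Cluster 1 thus lay near cluster 4 for Tyrobp at equal depth, and both lay far above the background of cluster 0.

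**Figure D1:**
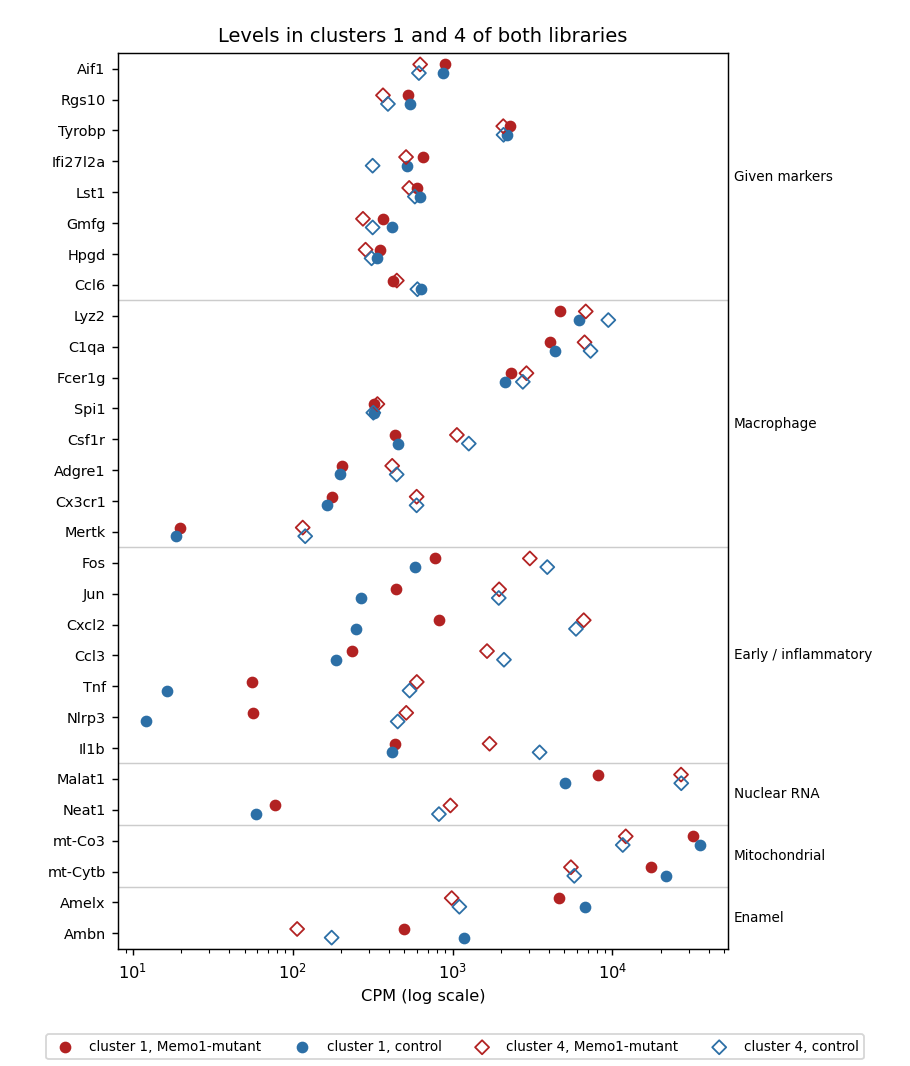
Levels of named genes in cluster 1 (filled circles) and cluster 4 (open diamonds) of the Memo1-mutant (red) and control (blue) libraries, in CPM on a log scale, 1 point for each library. The given markers lie close together in both clusters, early and inflammatory genes and the nuclear RNAs Malat1 and Neat1 lie lower in cluster 1, and mitochondrial and enamel transcripts lie higher.

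Cluster 1 stood apart from cluster 4 in depth. Its cells had a median of 846 UMIs in the mutant and 866 in the control library, with lower quartiles of 648 and 667 UMIs. The smallest cell in the files has 501 UMIs. The medians of cluster 4 were 14240 and 14473 UMIs. In total 1361850 mutant and 1406960 control UMIs lie behind the cluster 1 values, and 14924358 and 7403886 behind those of cluster 4. All but 1 of the 1478 cells of cluster 4 had over 2000 UMIs, while 132 mutant and 113 control cells of cluster 1 did. At 500 UMIs per cell the median number of genes was 304 in mutant and 288 in control cells of cluster 1, and 346 and 334 in those of cluster 4. Across 6368 genes in the mutant library and 6170 in the control library, the profile of cluster 1 was nearest to that of cluster 4 among the other 28 clusters, with a Pearson r of 0.905 and 0.875 on log2(CPM + 10). Cluster 23 came next (0.827 and 0.823) and then cluster 0 (0.799 and 0.788). These correlations are across genes of 1 library, whose depth and free RNA the clusters share, and are given as a description.

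**Figure D2:**
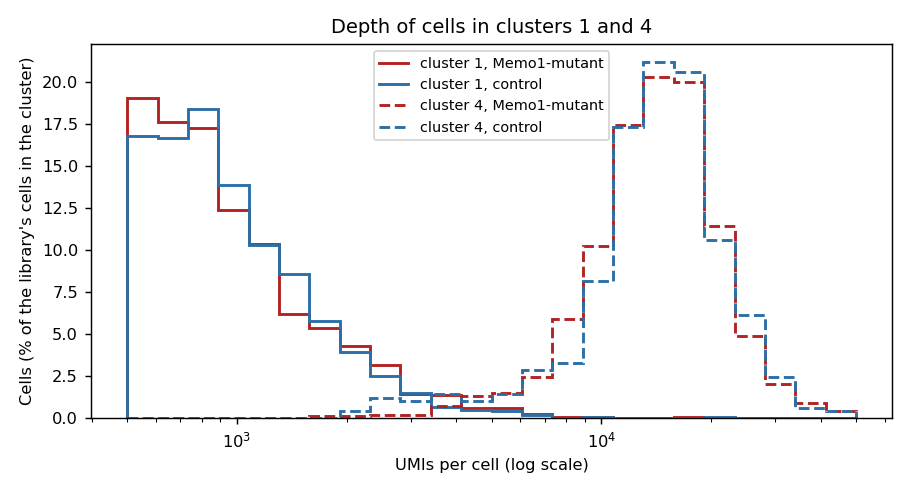
UMIs per cell, on a log scale, for cluster 1 (solid) and cluster 4 (dashed) of the Memo1-mutant (red) and control (blue) libraries, as percent of the library's cells in the cluster. The distributions of the libraries lie close together, with medians of 846 and 866 UMIs in cluster 1 and 14240 and 14473 in cluster 4.

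Cluster 1 made up 8.55% of the mutant cells (95% Clopper-Pearson interval 8.09 to 9.03) and 12.9% of the control cells (12.2 to 13.6). Its 10 leading genes differed by less than 2-fold between libraries. The share depended on limits for depth and quality: among cells with at least 1000 UMIs it was 4.20% of mutant and 7.13% of control cells. Among cells with at most 10% mitochondrial counts it was 3.73% (3.33 to 4.16) and 3.93% (3.39 to 4.53), intervals that overlap. Clusters 1 and 4 together held 15.7% of the mutant and 17.96% of the control cells. For each cell of cluster 4 there were 1.20 cells of cluster 1 in the mutant and 2.55 in the control library. The shallow and deep endothelial-like clusters 9 and 8 showed the same order, with 0.785 and 1.35 shallow cells for each deep one. The lower median depth of the control library moves with these shares, and its part in them was not tested.

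Against cluster 4, cluster 1 had similar levels of its markers and of actin and motility genes, had lower inflammatory, immediate early and chemokine genes, and had higher mitochondrial, enamel and mesenchymal RNA. A gene was measured where it averaged at least 20 CPM and had at least 50 counts. In the mutant library 163 of 5314 were at least 2-fold higher in cluster 1 (3.07%) and 989 at least 2-fold lower (18.6%), with a median log2 ratio of -0.25 over all measured genes. In the control library 218 of 5077 were higher (4.29%) and 1148 lower (22.6%), with a median of -0.28. Of 4909 genes measured in both libraries, the 800 that were lower in both are 86.0% of those lower in the mutant and 71.7% of those lower in the control library. The 91 higher in both are 77.1% and 46.7%. Haemoglobin, enamel and mitochondrial RNA take part of the total. With these left out of it the median moved to -0.11 in the mutant and -0.09 in the control library. The counts then became 312 higher and 823 lower in the mutant and 467 higher and 967 lower in the control library. The clusters were made from these genes, so the comparison is a description.

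The inflammatory list, with cytokines and the receptors and regulators around them, summed over all 14 members to 1375 CPM in mutant and 862 CPM in control cells of cluster 1, against 6812 and 8769.6 CPM in those of cluster 4. Of its members 12 passed the filter on low values and were at least 2-fold lower in cluster 1 in both libraries, beside 18.6% and 22.6% of all measured genes. Some, such as Ptgs2 and Il10, passed it through cluster 4 alone and had to differ, so that the count carries no weight of its own. Tnf, the cytokine that starts much of the inflammatory cascade, had 55.8 CPM in mutant and 16.3 CPM in control cells of cluster 1, against 597 and 538 CPM in mutant and control cells of cluster 4. That is 10.7-fold lower (95% interval 8.54 to 13.6) in the mutant and 32.9-fold lower (95% interval 21.9 to 52.0) in the control library. Nlrp3, the sensor of the inflammasome, had 56.5 CPM in mutant and 12.1 CPM in control cells of cluster 1, against 513 and 453 CPM in mutant and control cells of cluster 4. Il1b, the cytokine that the inflammasome releases, had 439 CPM in mutant and 421 CPM in control cells of cluster 1, against 1703 and 3503 CPM in mutant and control cells of cluster 4. For each of these genes both libraries of cluster 1 lay below both libraries of cluster 4.

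Of the immediate early list, transcription factors and signalling regulators induced within minutes, the 14 members that passed the filter in the mutant and the 13 that did in the control library were at least 2-fold lower in cluster 1. Over all 14 members the list summed to 5042 CPM in mutant and 3161 CPM in control cells of cluster 1, against 22718 and 25676 CPM in those of cluster 4. Fos, a partner in the AP-1 factor, had 775 CPM in mutant and 583 CPM in control cells of cluster 1, against 3043 and 3911 CPM in mutant and control cells of cluster 4. Jun, its other partner, had 442 CPM in mutant and 268 CPM in control cells of cluster 1, against 1955 and 1945 CPM in mutant and control cells of cluster 4. Dusp1, the phosphatase that ends MAP kinase signals, was 5.99-fold lower (95% interval 5.44 to 6.62) in the mutant and 15.1-fold lower (95% interval 13.001 to 17.7) in the control library. Of 14 chemokines 10 were at least 2-fold lower in the mutant and 9 in the control library. These counts and those of the immediate early list stand beside 18.6% and 22.6% of all measured genes. A member low in cluster 1 can pass the filter through cluster 4 alone and then has to be lower in cluster 1. Cxcl1 did so in the control library. These counts therefore carry no weight of their own. Cxcl2 (chr5:90903871-90905938, plus strand), which attracts neutrophils, had 825 CPM in mutant and 249 CPM in control cells of cluster 1, against 6614 and 5914 CPM in mutant and control cells of cluster 4. Ccl3, which attracts monocytes and lymphocytes, had 236 CPM in mutant and 186 CPM in control cells of cluster 1, against 1642 and 2096 CPM in mutant and control cells of cluster 4. Ccl6 and Pf4 were the chemokines that differed least: Ccl6 had 427 CPM in mutant and 631 CPM in control cells of cluster 1, against 448 and 602 CPM in mutant and control cells of cluster 4.

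Of the 15 genes that the naming rule ranked lowest in cluster 1, the first was the nuclear RNA Neat1, with 77.8 CPM in mutant and 59.0 CPM in control cells of cluster 1, against 969 and 821 CPM in mutant and control cells of cluster 4, which is 12.4-fold lower (95% interval 10.3 to 15.2) in the mutant and 13.9-fold lower (95% interval 11.2 to 17.5) in the control library. After it came Etv3, a transcriptional repressor of the ETS family, which was 12.1-fold lower (95% interval 8.88 to 16.8) in the mutant and 19.1-fold lower (95% interval 13.02 to 29.3) in the control library. Icam1, the adhesion molecule for leukocytes, was 9.84-fold lower and 13.9-fold lower. Nfkbiz, a nuclear regulator of NF-kB targets, was 8.37-fold lower and 18.5-fold lower. Il1rn, the antagonist of the IL-1 receptor, was 13.6-fold lower and 11.97-fold lower. Casp4, Bach1, Kdm6b, Rel, Cd83, Ccl3 and Ccl4 complete the 15 with Tnf, Nlrp3 and Cxcl2.

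Macrophage identity genes ranged from level to several-fold lower. In cluster 1 of the mutant library 9 of 20, and of the control library 11 of 20, were at least 2-fold lower than in cluster 4, with median log2 ratios of -0.82 and -1.06. Of all measured genes 18.6% and 22.6% were at least 2-fold lower. Mertk passed the filter on low values through cluster 4 alone, so that these counts carry no weight of their own. Spi1 stood level, at 324 CPM in mutant and 321 CPM in control cells of cluster 1, against 339 and 319 CPM in mutant and control cells of cluster 4. Fcer1g, the signalling chain of Fc receptors, had 2334 CPM in mutant and 2134 CPM in control cells of cluster 1, against 2898 and 2750.3 CPM in mutant and control cells of cluster 4. Csf1r, the receptor that macrophages need to survive, had 438 CPM in mutant and 456 CPM in control cells of cluster 1, against 1064 and 1263 CPM in mutant and control cells of cluster 4, and was 2.43-fold lower (95% interval 2.24 to 2.64) in the mutant and 2.77-fold lower (95% interval 2.56 to 3.01) in the control library. Mertk, a receptor for the uptake of dying cells, had 19.8 CPM in mutant and 18.5 CPM in control cells of cluster 1, against 115 and 119.7 CPM in mutant and control cells of cluster 4, and Cd14, the co-receptor for bacterial lipopolysaccharide, had 287 CPM in mutant and 159.9 CPM in control cells of cluster 1, against 1418 and 1738 CPM in mutant and control cells of cluster 4. With haemoglobin, enamel and mitochondrial RNA left out of the totals, the counts past 2-fold became 7 of 20 in the mutant and 8 of 20 in the control library.

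Other functions of the macrophage lay between these ends. Their counts by totals stand beside 18.6% in the mutant and 22.6% in the control library of all measured genes at least 2-fold lower. A member low in cluster 1 can pass the filter through cluster 4 alone, so that these counts carry no weight of their own. Of 12 measured complement and phagocytosis genes 7 in the mutant and 8 in the control library were at least 2-fold lower, C3ar1, the receptor for a complement fragment, among them at 80.0 CPM in mutant and 59.0 CPM in control cells of cluster 1, against 492 and 492 CPM in mutant and control cells of cluster 4. Of 15 lysosomal genes 5 and 7 were at least 2-fold lower, and 2 and 5 with the totals reduced in that way. Lipa, the lysosomal lipase, had 72.7 CPM in mutant and 49.8 CPM in control cells of cluster 1, against 254 and 234 CPM in mutant and control cells of cluster 4, while Npc2, which moves cholesterol out of lysosomes, had 636 CPM in mutant and 717 CPM in control cells of cluster 1, against 737 and 821 CPM in mutant and control cells of cluster 4. Of the myeloid transcription factors 7 of 13 in the mutant and 8 of 12 in the control library were at least 2-fold lower. Klf6, a zinc finger factor, was 6.39-fold lower and 9.88-fold lower. Of the 6 measured MHC class II genes 0 in the mutant and 4 in the control library were at least 2-fold lower, and 3 and 5 after thinning to 500 UMIs. Cd74, the chain that escorts MHC class II, had 3848 CPM in mutant and 5566 CPM in control cells of cluster 1, against 5319 and 12839 CPM in mutant and control cells of cluster 4. Here the control library of cluster 4 was the highest of the 4 values.

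Of 15 actin and motility genes, 0 in the mutant and 1 in the control library were at least 2-fold lower, beside 18.6% and 22.6% of all measured genes. The medians, beside -0.25 and -0.28 over all measured genes, were -0.02 and 0.03, and 0.11 and 0.22 with the reduced totals. Tmsb4x, the peptide that holds actin monomers, had 21459 CPM in mutant and 17925 CPM in control cells of cluster 1, against 14696 and 11989.9 CPM in mutant and control cells of cluster 4. Arpc1b, a subunit of the Arp2/3 complex, had 847 CPM in mutant and 806 CPM in control cells of cluster 1, against 768 and 682 CPM in mutant and control cells of cluster 4. Lcp1, the actin bundler L-plastin, was the member past 2-fold, at 264 CPM in mutant and 195 CPM in control cells of cluster 1, against 515 and 529 CPM in mutant and control cells of cluster 4. Of the 9 measured interferon-inducible genes 1 and 2 were at least 2-fold lower, and Ifitm3 and Bst2, which restrict viruses, had 1101 and 519 CPM in mutant cells of cluster 1 and 919 and 540.3 CPM in those of cluster 4. Of 6 measured genes of iron handling 3 were at least 2-fold lower in each library, with medians of -0.75 and -1.02. Its most abundant members, the ferritin chains Fth1 and Ftl1 that store iron, were 1.23-fold higher and 1.15-fold higher in the mutant library. None of the 8 given markers passed 2-fold, with medians of 0.32 and 0.25, and Aif1 was 1.43-fold higher (95% interval 1.34 to 1.51) in the mutant and 1.41-fold higher (95% interval 1.32 to 1.501) in the control library.

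Mitochondrial, ribosomal and dental RNA was higher in cluster 1 than in cluster 4. Of the 13 genes of the mitochondrial genome, 10 in the mutant and 12 in the control library were at least 2-fold higher. These counts stand beside 3.07% and 4.29% of all measured genes. The gene mt-Cytb, a subunit of respiratory complex III, had 17412 CPM in mutant and 21482 CPM in control cells of cluster 1, against 5499 and 5770.5 CPM in mutant and control cells of cluster 4. Mitochondrial counts made up 13.4% of mutant and 15.7% of control counts in cluster 1, and 5.49% and 5.56% in cluster 4. Ribosomal protein genes made up 20.4% and 21.04% in cluster 1, against 11.3% and 10.99% in cluster 4. The nuclear RNA Malat1 (chr19:5795690-5802672, minus strand) went the other way, with 8141 CPM in mutant and 5041 CPM in control cells of cluster 1, against 26862 and 26946 CPM in mutant and control cells of cluster 4. Meg3, the other RNA of the nuclear list beside Neat1, was higher in cluster 1, with 159 CPM in mutant and 91.0 CPM in control cells of cluster 1, against 69.5 and 61.9 CPM in mutant and control cells of cluster 4.

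The dental RNA was that of the epithelium and mesenchyme of the tooth. The genes that ranked highest over cluster 4 included the enamel matrix genes Enam, Amelx and Ambn, the calcium-binding Calb1, Clu, the keratin Krt14, Igf2, Enpp2 and the collagen Col1a1. Gng11, Gnrh1, Plod2, Cldn10, Ctla2a and Hmgn3 complete the 15. Amelx, the main protein of enamel matrix, had 4644 CPM in mutant and 6783 CPM in control cells of cluster 1, against 987 and 1103 CPM in mutant and control cells of cluster 4. All 4 measured ameloblast genes in the mutant and all 6 in the control library were at least 2-fold higher. So were 4 of 4 and 5 of 5 of the dental epithelium and 6 of 10 and 7 of 8 of the dental mesenchyme. Of all measured genes 3.07% in the mutant and 4.29% in the control library were at least 2-fold higher. Some ameloblast and dental epithelium members passed the filter on low values through cluster 1 alone and had to differ. These counts therefore carry no weight of their own. Per cell the order was the opposite, with 5.35 and 7.62 Amelx UMIs in mutant and control cells of cluster 1, against 14.9 and 16.6 in those of cluster 4. The shallow cluster 0 held 6.34 and 7.15. Ambn, another matrix protein, stood in a similar proportion to Amelx in all 3 clusters of a library. For each 100 Amelx UMIs there were 10.8, 10.8 and 10.4 of Ambn in clusters 1, 4 and 0 of the mutant library, and 17.3, 15.9 and 18.4 in those of the control library.

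The shallow and deep endothelial-like clusters 9 and 8 give the same contrast of depth in another cell type. Their 8 endothelial genes summed to 5274 and 6166 CPM in mutant and control cells of cluster 9, and 9062 and 10047 CPM in those of cluster 8, against 179 and 144 CPM in those of cluster 1. Cluster 9 had 818 of 6093 genes at least 2-fold lower than cluster 8 (13.4%) in the mutant and 1083 of 5902 (18.3%) in the control library. Ameloblast genes had median log2 ratios of 2.50 and 2.85, and Malat1 and Neat1 were lower, 1.95-fold and 2.58-fold in the mutant library. Of the 14 immediate early genes 0 in the mutant and 5 in the control library were at least 2-fold lower, with medians of -0.39 and -0.81, where the same list in cluster 1 over cluster 4 stood at -2.21 and -3.17. The difference between the 2 contrasts was not tested.

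Within cluster 1 the composition followed depth. From the 392 mutant and 368 control cells with at most 700 UMIs up to the 132 and 113 cells above 2000 UMIs, the macrophage list stood at 17432 CPM in the lowest and 31449.9 CPM in the highest bin of the mutant, and at 17508 and 35309 CPM in those of the control library. Ameloblast genes ran the other way, with 9666 CPM in the lowest and 2521 CPM in the highest bin of the mutant, and 14461 and 4675 CPM in those of the control library. Mitochondrial counts were 16.2% and 11.2% in the lowest and highest bin of the mutant, and 19.0% and 10.98% in those of the control library. The cells of cluster 1 above 2000 UMIs were not matched in depth to cluster 4, which had medians of 14240 and 14473 UMIs. The part of depth in the values that follow was not tested. Above 2000 UMIs the immediate early list summed to 4876 CPM in mutant and 2056 CPM in control cells of cluster 1, against 22721 and 25676 CPM in those of cluster 4. Chemokines summed to 6919.6 and 4934 CPM, against 22763 and 20280 CPM.

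**Figure D3:**
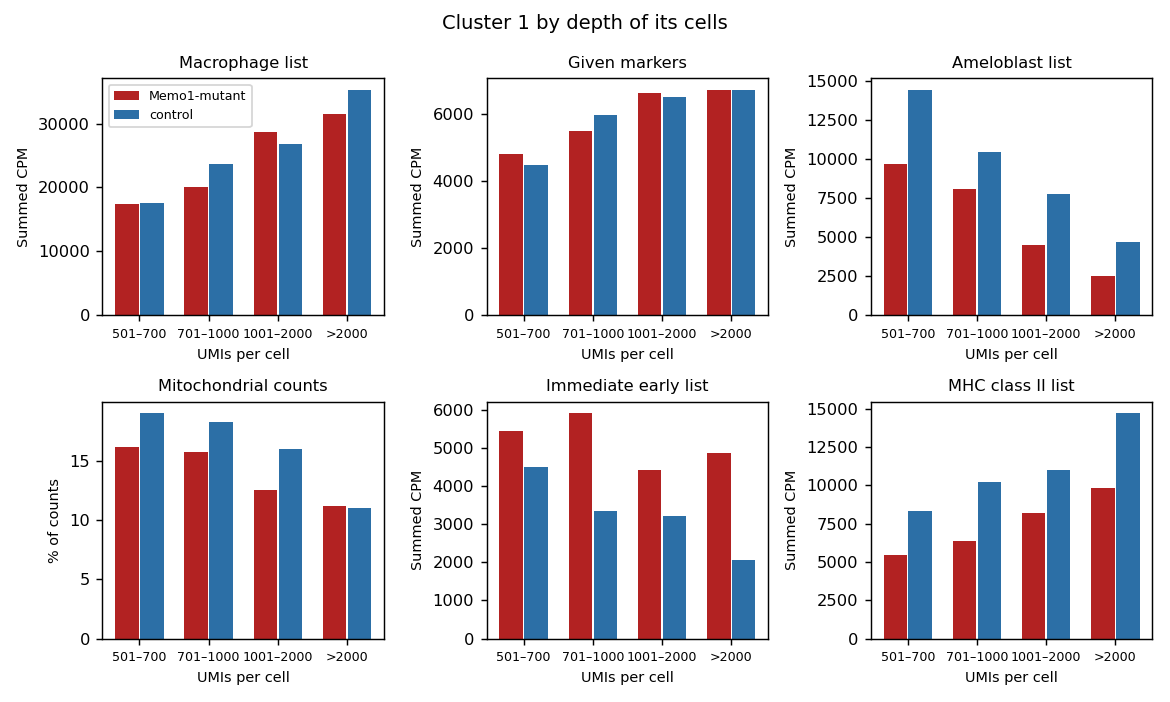
Summed CPM of gene lists, or percent of mitochondrial counts, in 4 bins of UMIs per cell in cluster 1, for the Memo1-mutant (red, left) and control (blue, right) libraries; each bar is 1 library, with no replicate. Macrophage and MHC class II genes stand higher, and ameloblast and mitochondrial counts lower, in the deeper bins of both libraries.

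Cells of cluster 1 also differed from each other in nuclear RNA. Among 500 UMIs drawn from each cell, no Malat1 was seen in 12.8% of mutant and 13.1% of control cells of cluster 1, but in 0 of 987 mutant cells (which allows a share of up to 0.304%) and 1.02% of control cells of cluster 4. At least 5 Malat1 UMIs were seen in 23.1% of mutant and 19.0% of control cells of cluster 1, and in 94.7% and 92.5% of those of cluster 4. The cells with no Malat1 were deeper, with medians of 1347 and 1472 UMIs, against 663 and 686 UMIs where Malat1 had 5 or more. They also held more macrophage RNA, 31811 and 30333 CPM, against 21189.5 and 21090.4 CPM. Summed by depth, Malat1 ran in opposite ways in the 2 libraries. From cells with at most 700 UMIs to those above 2000 it went from 8993 to 12670 CPM in the mutant and from 7990 to 3347 CPM in the control library. In the mutant library Xist, also nuclear, stood at 146 CPM in cells with no Malat1, 227 CPM in those with 1 to 4 and 1320.1 CPM in those with 5 or more. Neat1 stood at 19.7, 30.2 and 270.4 CPM in these classes of mutant cells, and at 72.6, 40.0 and 126 CPM in those of control cells, where the middle class was the lowest. In cells of cluster 1 with 5 or more, the immediate early list stood at 6170.0 CPM in the mutant and 3538 CPM in the control library, against 22932 and 25978 CPM in such cells of cluster 4. Depth differed between these cells as well, and the part of nuclear RNA was not tested.

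**Figure D4:**
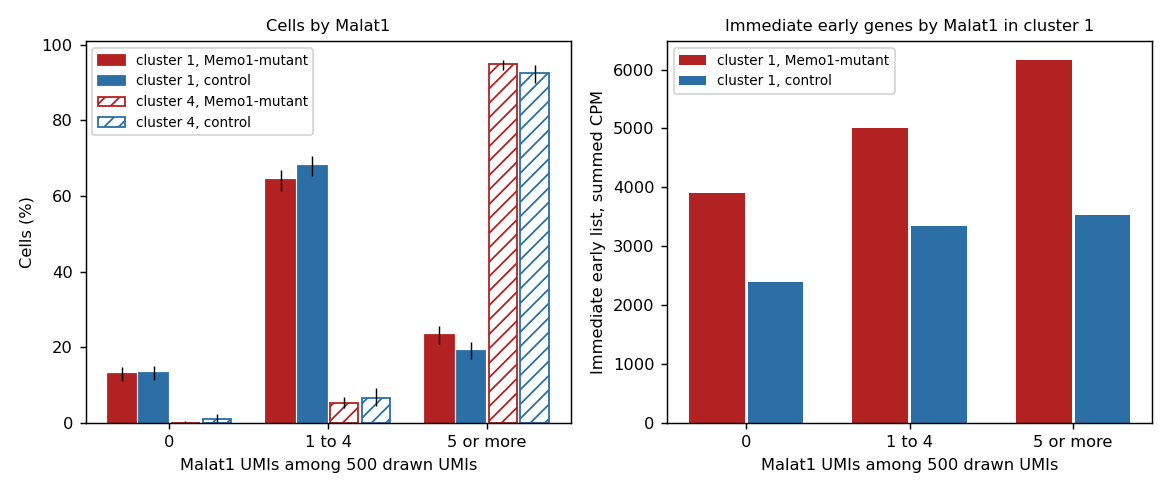
Left, share of cells by the number of Malat1 UMIs among 500 UMIs drawn from each cell, for cluster 1 (filled) and cluster 4 (hatched) of the Memo1-mutant (red) and control (blue) libraries, with exact 95% binomial intervals. Right, summed CPM of the immediate early list in cluster 1 within the same classes, where the mutant bar is the higher one in each class.

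Between the libraries, mutant cells of cluster 1 had higher summed levels of chemokine, inflammatory and immediate early genes and lower MHC class II and enamel transcripts. No macrophage identity gene of the lists passed 2-fold, and no measured MHC class II gene did either. Of 4728 measured genes 102 were at least 2-fold higher in mutant cells (2.16%) and 22 at least 2-fold lower (0.465%), and the median log2 ratio was 0.11. Scaling by TMM factors moved that median to -0.03 and the counts to 58 higher and 32 lower, and median-of-ratios factors gave 66 and 29. With TMM factors 5 of 14 chemokines, 3 of 8 inflammatory and 1 of 13 immediate early genes that passed the filter were past 2-fold higher, where the totals gave 6, 5 and 2. In cluster 4, 22 of 5430 genes were higher (0.405%) and 31 lower (0.571%), with a median of 0.09.

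Of the 14 chemokines 6 were at least 2-fold higher in mutant cells of cluster 1 (median log2 ratio 0.83), and 1 of 14 in cluster 4 (0.06), beside 2.16% and 0.405% of all measured genes. Cxcl2 had 825 CPM in mutant and 249 CPM in control cells of cluster 1, which is 3.31-fold higher (95% interval 2.93 to 3.74). In cluster 4 it had 6614 CPM in mutant and 5914 CPM in control cells, 1.12-fold higher (95% interval 1.11 to 1.13). Ccl2, the chief attractant of monocytes, had 509 CPM in mutant and 192 CPM in control cells of cluster 1 and was 2.65-fold higher (95% interval 2.30 to 3.06), where cluster 4 gave 1.56-fold higher (1.54 to 1.59). Cxcl1, a close relative of Cxcl2, rested on few counts, 100 in mutant and 16 in control cells, and was 6.46-fold higher (95% interval 3.79 to 11.7), where cluster 4 gave 2.67-fold higher (2.52 to 2.83). Cxcl1 passed the filter on low values through the mutant cells alone, so that the count of 6 carries no weight of its own. Ccl7, Ccl12 and Cxcl10 were the others past 2-fold in cluster 1. The ratio of Cxcl10 was 2.56, and 0.955 when only cells with at least 1000 UMIs were kept. Ccl6, Ccl8 and Ccl9 lay on the other side, Ccl8 at 176 CPM in mutant and 264 CPM in control cells and Ccl9 at 232 CPM in mutant and 352 CPM in control cells.

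The 14 inflammatory genes summed to 1375 CPM in mutant and 862 CPM in control cells of cluster 1, 1.59-fold (1.48 to 1.72), and to 6812 and 8769.6 CPM in those of cluster 4, a ratio of 0.777 (0.769 to 0.784). In cluster 1 only 8 of the 14 passed the filter, and 5 of these were at least 2-fold higher, beside 2.16% of all measured genes. Nlrp3 and Tnf passed it through the mutant cells alone, so that this count is no support. In cluster 4 Il1b was the member past 2-fold, and it was lower. Nlrp3 had 77 counts in mutant and 17 in control cells of cluster 1, 4.68-fold higher (95% interval 2.74 to 8.44). Tnf had 76 and 23 counts, 3.41-fold higher (95% interval 2.12 to 5.70). Nfkbia, the inhibitor that NF-kB induces against itself, had 589.6 CPM in mutant and 267 CPM in control cells, 2.21-fold higher (95% interval 1.95 to 2.50). In cluster 4 these 3 genes were 1.13-fold higher, 1.11-fold higher and 1.03-fold lower. Il1b, at 439 CPM in mutant and 421 CPM in control cells, was 1.04-fold higher in cluster 1 (0.930 to 1.17) and 2.06-fold lower in cluster 4 (2.02 to 2.09).

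The 14 immediate early genes summed to 5042 CPM in mutant and 3161 CPM in control cells of cluster 1. Dusp1 and Atf3 were at least 2-fold higher there, beside 2.16% of all measured genes. The 13 members that passed the filter were above 1 under every scaling tried (median 0.72). Among cells with at most 10% mitochondrial counts 7 of 11 passed 2-fold. In cluster 4 the median was -0.14 and 3 of 14 were above 1. Dusp1 had 304 CPM in mutant and 122 CPM in control cells of cluster 1, 2.49-fold higher (95% interval 2.08 to 2.99), and Fos had 775 CPM in mutant and 583 CPM in control cells, 1.33-fold higher (95% interval 1.21 to 1.46). Among the 15 genes that the naming rule ranked highest were Gdf15, Hmox1, Ppp1r15a and Kdm6b. Gdf15, a cytokine of stressed cells, had 338 CPM in mutant and 86.7 CPM in control cells and was 3.90-fold higher (95% interval 3.18 to 4.80). Hmox1, which breaks down haem, had 354 CPM in mutant and 142 CPM in control cells and was 2.49-fold higher (95% interval 2.11 to 2.95). Ppp1r15a, which restarts translation after stress, had 120.4 CPM in mutant and 42.6 CPM in control cells and was 2.82-fold higher (95% interval 2.09 to 3.86), and the histone demethylase Kdm6b was 3.03-fold higher (95% interval 2.12 to 4.40). In cluster 4 Gdf15, Hmox1, Ppp1r15a and Kdm6b were 1.28-fold higher, 1.496-fold higher, 1.04-fold lower and 1.02-fold higher.

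Malat1 was also higher in the sum over mutant cells of cluster 1, though not at every depth. It had 8141 CPM in mutant and 5041 CPM in control cells, 1.62-fold higher (95% interval 1.57 to 1.66). In cells with at most 700 UMIs it had 8993 and 7990 CPM. Above 700 and up to 1000 UMIs it had 6503 and 5679 CPM. Above 1000 and up to 2000 UMIs it had 4359 and 4526 CPM, with the control level the higher one. The widest gap was in cells above 2000 UMIs, where Malat1 had 12670 and 3347 CPM. It was higher in the mutant library in other shallow clusters too, at 12859.9 and 5142 CPM in mutant and control cells of cluster 0, 16522 and 9606 CPM in those of cluster 9, and 28443 and 13314 CPM in those of cluster 17. The immediate early list there summed to 1625 and 1118 CPM in cluster 0, 6675 and 5712 CPM in cluster 9, and 1905 and 2899 CPM in cluster 17. In clusters 2, 19 and 21, also shallow, Malat1 stood at 10081 and 8641, 14605 and 11594, and 121838 and 63497 CPM in mutant and control cells. Their immediate early sums were 1293 and 1120, 879 and 961, and 2729 and 1724 CPM. The part of a difference between whole libraries in the cluster 1 values was not tested. The immediate early list was also summed within the classes set by Malat1. These classes differ in depth too, and the part of nuclear RNA in the difference between libraries was not tested. The summed immediate early list was 1.62-fold higher in mutant cells where Malat1 was 0 among 500 UMIs (95% interval 1.48 to 1.79), 1.496-fold where it was 1 to 4, and 1.74-fold where it was 5 or more (1.59 to 1.91). Over all cells of cluster 1 it was 1.595-fold. By depth, the mutant and control levels of the immediate early list were 5457 and 4506 CPM in cells with at most 700 UMIs, and 4876 and 2056 CPM in cells above 2000. The mutant level was the higher one in all 4 bins.

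MHC class II genes were lower in mutant cells of both macrophage-like clusters, also under each scaling tried, and the difference between the clusters was not tested. None of the 6 measured passed 2-fold in cluster 1, where the median was -0.53 and all 6 were below 1, and 5 of 6 did in cluster 4, where it was -1.27. Of all measured genes 0.465% in cluster 1 and 0.571% in cluster 4 were at least 2-fold lower. The count of 0 in cluster 1 is near that share. Cd74 had 3848 CPM in mutant and 5566 CPM in control cells of cluster 1, 1.45-fold lower (95% interval 1.40 to 1.498), and 5319 CPM in mutant and 12839 CPM in control cells of cluster 4, 2.41-fold lower (95% interval 2.39 to 2.44). H2-Aa, a chain of the class II molecule, had 1173 CPM in mutant and 1759.8 CPM in control cells of cluster 1, 1.4998-fold lower (95% interval 1.41 to 1.598), and was 2.48-fold lower in cluster 4. Ciita, the factor that switches class II genes on, had 0 counts in mutant and 7 counts in control cells of cluster 1. The deepest cells of cluster 1 showed 9816 CPM of the class II list in the mutant and 14698 CPM in the control library.

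Identity genes did not pass 2-fold between the libraries. The 8 given markers had a median log2 ratio of 0.00 and the 19 measured macrophage genes one of 0.01 (-0.14 and -0.13 with TMM factors), with 0 members past 2-fold in either list. With 2.16% and 0.465% of all measured genes past 2-fold, lists of this size hold about none at the background share, so these counts set the lists apart from no other genes. The count was also 0 for 15 lysosomal, 15 actin and motility, 14 Fc receptor and ITAM signalling, 11 complement and phagocytosis, 12 myeloid transcription factor and 9 interferon-inducible genes. Csf1r had 438 CPM in mutant and 456 CPM in control cells, a ratio of 0.961 (0.858 to 1.08), and C1qa had 4087 CPM in mutant and 4349.8 CPM in control cells, a ratio of 0.940 (0.906 to 0.974). Of 9 measured resident macrophage genes 7 were above 1 (6 with TMM factors) and 0 past 2-fold. Cbr2, a carbonyl reductase of such cells, had 556 CPM in mutant and 334 CPM in control cells, 1.66-fold higher (95% interval 1.48 to 1.87), where cluster 4 gave 1.97.

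**Figure D5:**
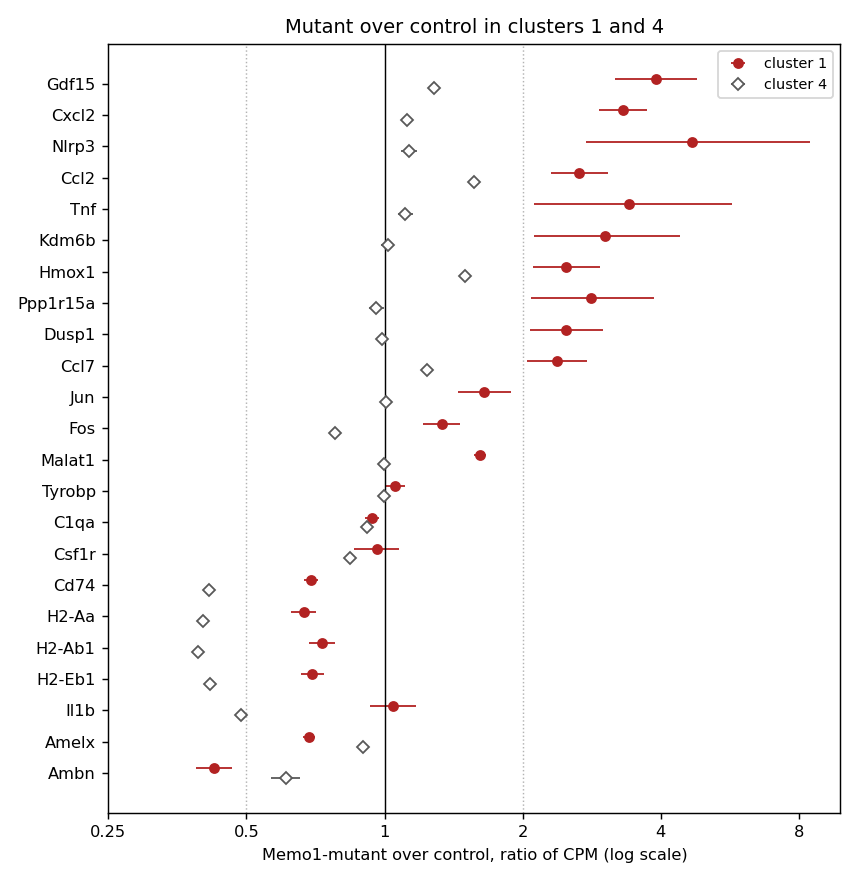
Ratio of CPM, Memo1-mutant over control, in cluster 1 (red circles) and cluster 4 (open diamonds), on a log scale, with exact 95% intervals that cover counting error only; dotted lines mark 2-fold. The genes from Gdf15 to Ccl7 lie above 2 in cluster 1 and nearer to 1 in cluster 4, Jun and Fos lie lower and Il1b near 1 in cluster 1, MHC class II genes lie below 1 in both, and Tyrobp, C1qa and Csf1r lie near 1.

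Transcripts of other tissues differed between the libraries as well. In cluster 1 the enamel genes Odam and Amtn, made late in enamel formation, had 1 and 15 counts in mutant and 151 and 175 counts in control cells. Outside clusters 1 and 4 Odam stood at 4.92 CPM in the mutant and 535 CPM in the control library, and Amtn at 52.9 and 614 CPM. Ambn was 2.35-fold lower (95% interval 2.15 to 2.57) in mutant cells of cluster 1, and Amelx 1.46-fold lower (95% interval 1.41 to 1.51). Sfrp2, a secreted modulator of Wnt signals made by mesenchyme, headed the higher genes with 236 CPM in mutant and 39.8 CPM in control cells, 5.92-fold higher (95% interval 4.45 to 8.01). Outside clusters 1 and 4 it stood at 1256 CPM in the mutant and 196 CPM in the control library. All 10 measured genes of the dental mesenchyme were above 1 in cluster 1, and 8 of 10 with TMM factors. The enamel and mesenchymal levels of the rest of each library thus differed in the same direction, and their part in these values was not tested.

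Some differences rested on a few cells. Haemoglobin genes were lower in mutant cells, 4 of 4 past 2-fold, beside 0.465% of all measured genes. Of the 7048 control counts of Hbb-bs 2 control cells held 81.0%, and Hba-a1 was 2.33-fold higher in mutant cells with at most 1000 UMIs. Ppbp, a platelet chemokine, ranked among the 15 highest, with 1 cell holding 26.1% of its mutant counts and 1 cell 53.8% of its control counts. The other genes that the rule ranked among the lower 15 were the predicted genes Gm10709, Gm8797, Gm26870 and Gm42418, the mitochondrial protein gene Chchd10, the epithelial keratins Krt14 and Krt5, Calb1 and the gelatinase Mmp9. Mmp9 had 45.5 CPM in mutant and 88.1 CPM in control cells, 1.94-fold lower (95% interval 1.42 to 2.67). Erdr1 and the cyclin-like Ccnl1 complete the higher 15.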

How the data were processed

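Single-cell RNA of the cervical loop region was counted in 1 Memo1-mutant and 1 control library. The deposited values are raw UMI counts per gene and cell with the authors' cluster numbers, per the file headers. Cell Ranger (version not given in the sources used here), Seurat 3 and the build mm10 are named in the submitters' processing notes. The deposited table holds 19626 genes and cells of 501 to 49967 UMIs with at most 30.0% mitochondrial counts.

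No cell was removed, and doublets were not called. For each cluster and library the counts of its cells were added up and divided by their total (CPM). Ratios carry exact 95% conditional binomial intervals, which cover counting error only. A gene was measured where it averaged at least 20 CPM and had at least 50 counts, and 2-fold was the threshold. Members, lists (40, with 362 of 367 genes in the deposited table) and tests were chosen with earlier results of these data known. By the naming rule, genes reaching 50 CPM in the higher group were ranked by the interval bound nearer to 1, 15 in each direction; list members could also be named. Alternatives were TMM (edgeR 4.0.16) and median-of-ratios factors (DESeq2 1.42.0, R 4.3.3), reduced totals, limits on cells, thinning to 500 UMIs and per-cell means. Python 3.11.15, numpy 2.4.6, pandas 2.3.3 and scipy 1.17.1 were used. The ratio and thinning steps were tested on simulated data. Promoters are those of RefSeq on GRCm38.p6, of the same assembly as mm10.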

Additional observations from a re-analysis of the deposited data

Results flagged for a closer look

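For 6 named genes the Memo1-mutant over control ratio lay above 1 in cluster 1 and below 1 in cluster 4, with counting intervals that do not include 1 on either side. They were picked from the named genes by this pattern, so that their number carries no weight. The intervals do not cover the choice of scaling. The difference between the clusters was not tested, since each ratio comes from 1 library in each group.

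Tnfaip3, an inhibitor of NF-kB signalling, had a ratio of 2.53 (1.62 to 4.04) in cluster 1 and 0.808 (0.774 to 0.844) in cluster 4. It rested on 71 mutant and 29 control counts in cluster 1. Nfkbia had 2.21 (1.95 to 2.50) and 0.975 (0.958 to 0.991), and Ppp1r15a had 2.82 (2.09 to 3.86) and 0.959 (0.923 to 0.996). The cluster 4 ratios of these 3 genes lay between 0.808 and 0.975.

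Acta2 and Tagln, actin and transgelin of smooth muscle, had ratios of 2.27 (1.55 to 3.37) and 1.85 (1.19 to 2.92) in cluster 1, against 0.496 (0.429 to 0.574) and 0.389 (0.333 to 0.454) in cluster 4. Acta2 rested on 90 mutant and 41 control counts in cluster 1, and Tagln on 59 and 33. There 20 mutant and 11 control cells with at least 3 UMIs of smooth muscle genes held 36.7% and 22.8% of that list's counts. Single cells of cluster 1 held up to 43 of the 452 mutant and 18 of the 272 control counts. In cluster 4, 79 mutant and 22 control cells with at least 3 UMIs of smooth muscle genes held 82.7% and 88.7% of that list's counts, and single cells held up to 468 of the 2831 mutant and 421 of the 1336 control counts. Fabp4, a fatty acid carrier of endothelium and fat as well as of macrophages, had 3.69 (2.01 to 7.23) and 0.744 (0.656 to 0.844), from 50 and 14 counts in cluster 1. There it passed the filter on low values through the mutant cells alone.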

How the results depend on the processing

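No paired analysis was possible because each group is 1 mouse with 1 library. Neither the spread between mice nor the part of sex, library depth or free RNA in a ratio could be measured, and a gene with few counts in cluster 1 passes 2-fold more easily than one with many. Of genes at least 2-fold higher in mutant than control cells of cluster 1, 102 by totals, there were 58 with TMM factors, 66 with median-of-ratios factors, 2619 with no filter on low counts, 54 after thinning and 57 in cells with at most 1000 UMIs, a limit chosen after seeing the data. Of those lower, 22 by totals, there were 1485 with no filter, 12 with at most 10% mitochondrial counts, 12 after thinning and 13 in cells with at most 1000 UMIs. Higher in cluster 1 than 4, 163 in the mutant and 218 in the control library, were 312 and 467 with reduced totals, 2609 and 2703 with no filter, 275 and 421 with at most 10% mitochondrial counts, 251 and 331 without the deepest 5% of cells, and 291 and 354 by per-cell means. Lower, 989 and 1148, were 4789 and 4576 with no filter and 647 and 482 after thinning. The share of cluster 1 was 4.20% of mutant and 7.13% of control cells with at least 1000 UMIs, 3.73% and 3.93% with at most 10% mitochondrial counts, and 10.3% and 18.6% outside the ameloblast lineage. Without cells whose barcode occurs in both libraries, added after seeing the data, these counts stayed within 1.5 times. No cause of these shifts was tested.

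Of the mutant over control ratios in cluster 1, 3 turned round: Cxcl10 at 0.955 with at least 1000 UMIs, and Hba-a1 at 2.33 and Hba-a2 at 2.31 in cells with at most 1000 UMIs. Of the ratios of cluster 1 over 4, those of S100a9 (0.818) and Jchain (0) turned round in the mutant library with at most 10% mitochondrial counts, and Ctla2a (0.898) in the control library. In the control library Hbb-bs (0.869), Tagln (1.36), Hba-a1 (0.751) and Hba-a2 (0.905) did so without the deepest 5% of cells, Spp1 (1.18), Tagln (1.01) and Hba-a1 (0.967) after thinning, and Tagln (1.10) by per-cell means. The other ratios of named genes that were rerun and had passed 2-fold did not change direction under these settings.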

Other observations

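Other macrophage functions gave values that stand in no comparison above. Of 9 measured genes of lipid handling 1 was at least 2-fold higher in mutant cells of cluster 1, Fabp4, and the list had a median log2 ratio of 0.38, against -0.12 in cluster 4. Of 6 measured genes of iron handling 1 was at least 2-fold higher, Hmox1. These counts stand beside 2.16% of all measured genes, and Fabp4 passed the filter on low values through the mutant cells alone. Both metallothionein genes, which bind zinc and copper, were above 1 in cluster 1 (median 0.62) and below 1 in cluster 4 (-0.36). Cell cycle genes were sparse: 4 of 10 were measured in cluster 1, with a median of 0.05. Of 8 genes chosen around Memo1 signalling 3 were measured, with a median of 0.08, beside 0.11 over all measured genes. Jchain, which joins immunoglobulin chains in plasma cells, had 66 counts in mutant and 0 in control cells of cluster 1, and 1 cell held 56.1% of them.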
